A study of Homo sapiens with 6 samples.

Results

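The replication-dependent histone genes were taken as all genes whose symbol names a linker histone H1-1 to H1-6 or a numbered H2A (H2AC), H2B (H2BC), H3 (H3C) or H4 (H4C) gene. Of the 39020 genes listed in at least 1 table, 48 were such genes, out of 69 that carry such a symbol in RefSeq. They comprised 5 H1, 13 H2A, 13 H2B, 7 H3 and 10 H4 genes, with 41 on chromosome 6, 6 on chromosome 1 and H4C16 on chromosome 12. The genes were counted in U2OS, a human osteosarcoma cell line, with 2 assays. iCLIP uses ultraviolet light to crosslink RNA with bound protein, and the RNA recovered with FLAG-tagged TIRR, a partner of the DNA repair protein 53BP1, was counted in 2 irradiated and 2 untreated libraries. These iCLIP cells stably carried the FLAG version of TIRR in both groups. RNA-seq was made from wild-type cells, with 1 irradiated and 1 untreated library. By the labels, the irradiated groups had 4 h of recovery after an X-ray dose of 5 Gy, although the design text names gamma radiation for the RNA-seq experiment. Empty-vector cells were not analysed here, so no background was subtracted from iCLIP. The labels do not tell whether replicates were separate cultures, and the spread between them may be technical.

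Core histones H2A, H2B, H3 and H4 form the protein spool of the nucleosome, and H1 binds the linker DNA between spools. Replication-dependent histone mRNAs are made mainly in S phase. Most end in a stem-loop in place of a poly(A) tail, which SLBP binds, and they are degraded when DNA synthesis stops, although several of these genes are known to give polyadenylated transcripts too.

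To show what these genes share in sequence, the 250 bases before the start of the gene with the most RNA-seq counts in each type are given 5′ to 3′ along the gene's strand, from RefSeq, build GRCh38.p14. Capitals mark matches to 4 promoter motifs on either strand: the TATA box (TATAAA, or TTTATA on the other strand), the CCAAT box (CCAAT or ATTGG), the octamer (ATTTGCAT or ATGCAAAT) and the H1 box (AAACACA or TGTGTTT).
H1-2 chr6:26056471-26056720 (minus strand): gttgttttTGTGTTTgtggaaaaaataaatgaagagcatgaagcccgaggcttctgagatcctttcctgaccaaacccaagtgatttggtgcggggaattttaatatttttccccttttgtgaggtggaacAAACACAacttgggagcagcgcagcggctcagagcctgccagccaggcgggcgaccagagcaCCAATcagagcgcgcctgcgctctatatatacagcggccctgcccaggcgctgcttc
H2AC6 chr6:26123922-26124171 (plus strand): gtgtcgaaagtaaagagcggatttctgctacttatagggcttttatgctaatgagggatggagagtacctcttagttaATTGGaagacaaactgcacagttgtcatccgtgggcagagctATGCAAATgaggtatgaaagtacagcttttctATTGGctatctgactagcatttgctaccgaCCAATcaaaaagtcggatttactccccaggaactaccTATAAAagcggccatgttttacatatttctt
H2BC12 chr6:27146859-27147108 (minus strand): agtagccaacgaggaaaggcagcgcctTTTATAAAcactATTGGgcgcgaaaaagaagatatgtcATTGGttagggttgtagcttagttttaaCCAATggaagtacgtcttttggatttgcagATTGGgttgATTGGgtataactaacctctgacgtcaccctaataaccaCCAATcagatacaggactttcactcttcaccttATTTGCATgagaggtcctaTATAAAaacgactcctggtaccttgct
H3C10 chr6:27809801-27810050 (plus strand): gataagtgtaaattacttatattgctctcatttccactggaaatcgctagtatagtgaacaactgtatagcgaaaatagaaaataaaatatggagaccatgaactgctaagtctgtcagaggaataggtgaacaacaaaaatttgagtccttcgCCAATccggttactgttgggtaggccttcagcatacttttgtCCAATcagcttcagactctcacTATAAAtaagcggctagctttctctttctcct
H4C8 chr6:26285535-26285784 (minus strand): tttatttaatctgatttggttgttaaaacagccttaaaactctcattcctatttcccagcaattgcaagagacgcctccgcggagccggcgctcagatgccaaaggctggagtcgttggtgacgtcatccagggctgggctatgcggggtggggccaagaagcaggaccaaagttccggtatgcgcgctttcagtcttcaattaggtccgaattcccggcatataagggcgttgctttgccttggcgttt
H1-2 held an H1 box 119 and 242 bases before the start and a CCAAT box at 57. H2AC6 and H2BC12 each held an octamer, at 130 and 46 bases, and a TATA box, at 31 and 27 bases. In H2BC12, TATA box matches on both strands overlap at 221 and 223 bases. H3C10 held a TATA box at 32 bases and CCAAT boxes at 54 and 96, and H4C8 held none of these letter strings.

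Promoters were available for 64 of these genes, whether or not they were listed in a table. The octamer was present in 11 of 16 H2A and 14 of 18 H2B promoters, in 1 of 11 H3 promoters and in no H1 (6) or H4 (13) promoter, against 2.03% of 27305 promoters of all genes. The H1 box was present in 6 of 6 H1 promoters and in no core histone promoter, against 5.95% of all promoters. A CCAAT box lay in every H1, H2A, H2B and H3 promoter but in 3 of 13 H4 promoters, against 37.0% of all promoters. The TATA box was found in 43 of 64 (67.2%), against 13.0%. A match describes the letters and says nothing on binding.

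**Figure D1:**
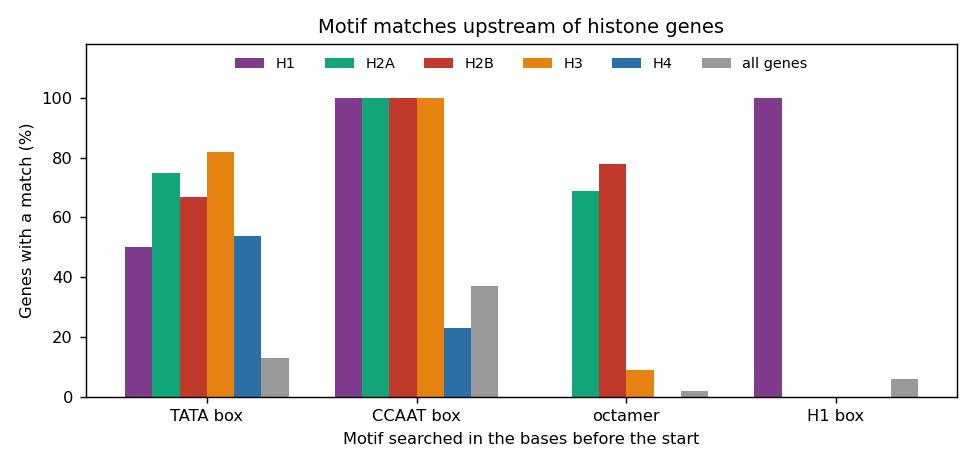
Percent of promoters (y axis) of each histone type and of all genes that hold each of 4 motifs (x axis) in the 250 bases before the start. The octamer stands at 68.8% of H2A and 77.8% of H2B promoters, and the H1 box at 100% of H1 promoters only among the 5 types.

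The iCLIP libraries were shallow, with 400723 and 664777 counts on genes in irradiated cells and 781997 and 799709 in untreated cells, while the RNA-seq libraries held 13023903 (irradiated) and 13015406 (untreated). Intergenic counts made up 30.6% to 31.3% of iCLIP and 44.4% of each RNA-seq library. In RNA-seq, 5 of 9 osteoblast and mesenchymal markers had at least 100 counts, led by COL1A1 with 44204 irradiated and 35832 untreated counts. The others were near absent. COL1A2 had 2 irradiated and 6 untreated counts and BGLAP, an osteoblast marker, 4 and 3, while SP7 and IBSP, which also mark osteoblasts, were not listed. RUNX2, the osteoblast transcription factor, fell in iCLIP, with 267 and 469 counts in irradiated and 875 and 889 in untreated libraries (log2 change -0.63, edgeR adjusted p = 0.00426, but 0.0550 without the first untreated library). Of 10 markers of other cells, only KRT18, a keratin, reached 100 counts, with 3451 irradiated and 3836 untreated, and PTPRC, a marker of blood cells, had 12 in each. The epithelial markers EPCAM and CDH1 had 57 and 16 irradiated and 55 and 5 untreated counts. PECAM1, an endothelial marker, had 39 irradiated and 55 untreated. The tables list only genes with a count, and 684 of 3337 genes with at least 1000 RNA-seq counts (20.5%) were in no iCLIP table, so absence from iCLIP does not show absence of the RNA.

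In iCLIP, histone genes gave few counts, and 33 of the 48 had at most 5 over all 4 libraries. Of the 48 genes, 39 were listed in some iCLIP table and 10 in all 4, with 25 seen in both groups, 3 in irradiated libraries alone and 11 in untreated ones alone. The irradiated libraries are the shallower ones. Over all genes, they listed 18715 and 20887, against 21600 and 22029 in untreated libraries. The share of all genes seen in 1 group alone was not computed, so this split cannot be read as a change in histone genes. The other 9 genes were seen in RNA-seq only, with at most 8 counts, and H1-5, a somatic linker histone, and H2BC1, a testis H2B, were in no table.

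H2B was the type with the clearest separation in iCLIP. The H2B genes together had 8 and 14 counts in irradiated libraries, against 35 and 42 in untreated ones. Per 1000000 gene counts this was 19.96 (exact Clopper-Pearson 95% interval 8.62 to 39.3) and 21.1 (11.5 to 35.3) in irradiated cells, and 44.8 (31.2 to 62.2) and 52.5 (37.9 to 71.0) in untreated cells. Both irradiated values lay below both untreated ones, at 20.5 ± 0.775 against 48.6 ± 5.49 (SD, n = 2 each), a log2 ratio of means of -1.25. The ratio of summed counts was 0.424 (95% counting interval 0.251 to 0.689). For single genes, such a separation with both irradiated libraries below is common: 22.0% of all 9230 tested genes showed it. With 2 libraries a group an exact two-sided permutation test cannot go below p = 0.333, so type sums carry no test. All intervals here cover counting error only.

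**Figure D2:**
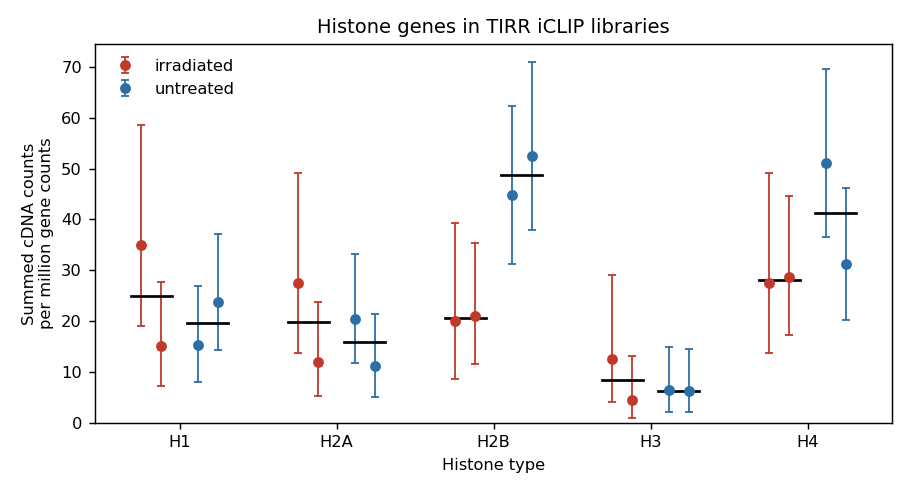
iCLIP counts per 1000000 gene counts (y axis), summed over the genes of each histone type (x axis). Points are libraries with exact 95% counting intervals, irradiated left of untreated, and black lines are means. H2B stands at 19.96 and 21.1 in irradiated cells, below 44.8 and 52.5 in untreated cells, while H1, H2A and H3 overlap.

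The lower H2B sum did not come from 1 gene alone. Of 12 H2B genes seen in iCLIP, 11 had a lower share of gene counts in irradiated cells. These genes make up the sum, so their direction is no separate support for it. H2BC6 had 4 counts in irradiated and 5 in untreated libraries, a higher share. Of all 39 histone genes seen in iCLIP, 24 had a lower and 15 a higher share. The same was not computed over all genes with so few counts. A gene with few counts is more readily seen in the deeper untreated libraries, so the direction of such genes says little. H2BC5, the H2B gene with most iCLIP counts together with H2BC15, had 3 and 2 counts in irradiated libraries and 9 and 6 in untreated ones. H2BC15 had 1 and 6 counts in irradiated and 5 and 8 in untreated libraries, and these groups overlap as shares. H2BC11 had 1 and 1 counts against 5 and 6. H2BC4 was singled out after its values were seen, and the remaining H2B genes complete the account. H2BC4 had 1 and 0 counts in irradiated libraries against 6 and 5, a ratio of 0.135 (95% counting interval 0.00314 to 0.929). It was the only one of all 39 genes whose interval lay wholly below 1. The share of such intervals over all iCLIP genes was not computed, so 1 among 39 cannot be judged against it. H2BC12 had 0 and 1 counts against 1 and 7, and without it the H2B ratio was 0.452 (0.263 to 0.745). H2BC7 and H2BC13 had no counts in irradiated libraries and 3 each in untreated ones. H2BC14 had 1 against 4, H2BC21 1 against 2, and H2BC8 and H2BC18 0 against 1 each.

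**Figure D3:**
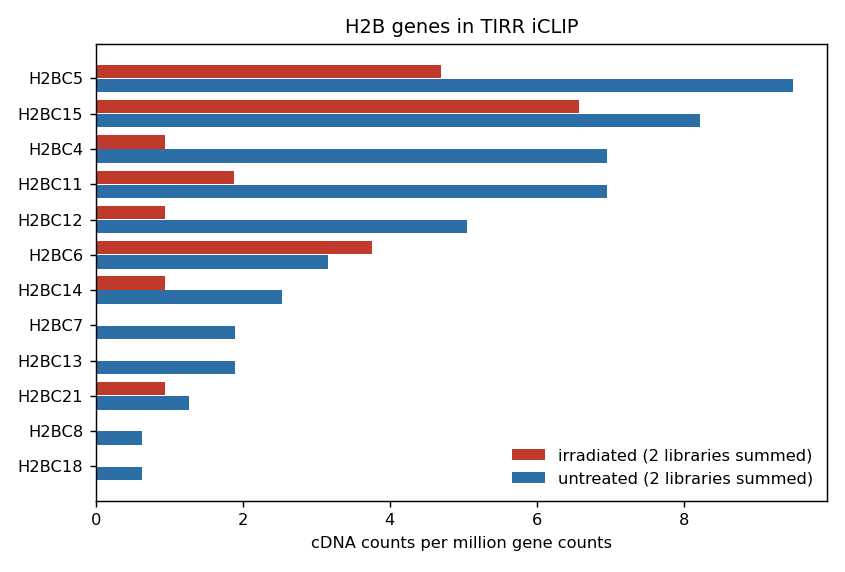
iCLIP counts per 1000000 gene counts (x axis) of each H2B gene listed in iCLIP (y axis), with both libraries of a group summed, irradiated above untreated. For 11 of 12 genes the irradiated bar is the shorter one, and H2BC6 is the exception. Several genes have very few counts, and the bars are the parts of the H2B sum.

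Several of these genes are annotated far beyond the short histone transcript. The tables give H2BC11 a length of 6899 bases and H2BC15 one of 17165, while RefSeq gives 480 and 542, so the interval counted is longer than the RefSeq gene. H2BC12 goes the other way, with 495 bases in the tables against 8566 in RefSeq. By table length it falls among the short genes below. The split by length was added after the values were seen. The 6 H2B genes of up to 1000 bases had 1 and 1 counts in irradiated and 6 and 13 in untreated libraries, a ratio of 0.156 (0.0176 to 0.648). The 7 longer ones had 7 and 13 against 29 and 29, a ratio of 0.512 (0.292 to 0.864). Both classes were lower in both irradiated libraries.

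H4 genes had 11 and 19 iCLIP counts in irradiated and 40 and 25 in untreated libraries. Per 1000000 gene counts these were 27.5 and 28.6 in irradiated cells against 51.2 and 31.3 in untreated cells, a log2 ratio of means of -0.56, and the groups do not overlap but the lower untreated library lay close to the irradiated ones. H4C16, a solitary H4 gene outside the large clusters whose table length of 3133 bases exceeds the 412 of RefSeq, held 19.9% of all histone iCLIP counts. It had 8 and 10 counts in irradiated and 29 and 15 in untreated libraries and was the only one of the 48 genes to pass the abundance filter of the edgeR fit. Its log2 fold change was -0.64 ± 0.44 (SE) with an edgeR adjusted p of 0.564, so 0 genes were called, where edgeR called 3.5% of all 9230 tested genes (224 higher, or 2.43%, and 99 lower, or 1.07%). The log2 fold change was -0.08 without untreated library 1 and -1.06 without untreated library 2. Its unadjusted p was 0.165, no histone gene was below 0.05, and DESeq2 gave H4C16 no adjusted p. Over all tested genes, 1340 had an unadjusted p below 0.05. Without H4C16 the H4 counts were 12 in irradiated and 21 in untreated libraries, a ratio of 0.848 (0.3805 to 1.81), and the groups overlap. H4C8 had 0 and 3 counts against 7 and 4, and H4C1 0 and 4 against 2 and 3.

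The other types showed no separation in iCLIP. Linker histones had 14 and 10 counts in irradiated against 12 and 19 in untreated libraries, a ratio of 1.15 (95% counting interval 0.645 to 2.02), an interval that includes both a fall and a 2-fold rise. H1-2 had 4 and 6 counts against 6 and 9, and H1-4, another somatic linker histone, had 10 and 3 against 4 and 8, so the irradiated libraries of H1-4 differed widely. The linker gene H1-1 had 0 and 1 against 2 and 2. H2A genes had 11 and 8 counts in irradiated against 16 and 9 in untreated libraries, a ratio of 1.13 (0.587 to 2.13). H2AC6 had 3 and 5 counts against 6 and 2, H2AC25 2 and 0 against 4 and 0, and H2AC12 2 and 1 against 1 and 1. H2AC1, a testis H2A that overlaps SLC17A1 in RefSeq, had 2 counts in 1 irradiated library and none elsewhere. H3 genes had 5 and 3 counts against 5 and 5, a ratio of 1.19 (0.407 to 3.34), of which H3C10 held 3 and 0 against 0 and 4. All histone genes together had 49 and 54 counts in irradiated and 108 and 100 in untreated libraries, 102 ± 29.0 against 132 ± 9.24 per 1000000 gene counts (SD, n = 2 each). Their ratio was 0.735 (0.575 to 0.935), but without H4C16 (0.769, 0.585 to 1.01) or without H2BC12 (0.757, 0.590 to 0.966) the groups overlap. The log2 ratio of means of all histone genes was -0.37, and it was -0.70 without irradiated library 1 and -0.11 without irradiated library 2.

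In RNA-seq, core histone genes were lower in the irradiated library and linker histones were level, with no replicate check on either. Core histone counts were 2067 in the irradiated and 2776 in the untreated library, a TMM-scaled ratio of 0.736 (95% counting interval 0.695 to 0.780). Linker histone counts were 626 in irradiated and 625 in untreated cells, a ratio of 0.990 (0.885 to 1.11), nearly all from H1-2, with 617 and 612. Among the other linker genes, H1-4 had 8 and 10, H1-1 0 and 2, H1-3 0 and 1 and the testis gene H1-6 1 and 0 counts in the irradiated and untreated library. Of the 48 genes, 45 were in some RNA-seq table, 33 in both, 3 in the irradiated one alone and 9 in the untreated one alone. Genes seen in 1 library alone had at most 4 counts. Over all genes, 29789 were listed in the irradiated and 29233 in the untreated library. The share of all genes listed in 1 library alone was not computed, so the listing by library cannot be read as a change in histone genes. In bulk RNA, fewer cells expressing these genes and less RNA per cell cannot be told apart.

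By type, H3 had the lowest ratio, with 44 irradiated against 95 untreated counts and a ratio of 0.458 (0.313 to 0.661). H2A had 334 against 494, a ratio of 0.669 (0.580 to 0.770), and H2B had 1535 against 2005, a ratio of 0.757 (0.708 to 0.809). H4 had 154 against 182, a ratio of 0.837 (0.671 to 1.04) whose interval includes 1.

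Of the 48 genes, 7 had at least 100 RNA-seq counts and together held 90.3% of the histone counts. None passed the size rule of a ratio beyond 2-fold with its interval wholly beyond 1.5-fold, which 1.49% of the 12977 genes with that many counts passed (0.863% higher, 0.624% lower). Of the 7, 5 had an interval wholly below 1, against 22.0% of all genes, and 0 had one wholly above 1, against 20.4%. The median log2 ratio of the 7 was -0.37, beside -0.0025 over all genes. H2BC12 (chr6:27138293-27146858 in RefSeq, where it overlaps H4C9) had 900 irradiated and 1167 untreated counts, a ratio of 0.763 (0.698 to 0.833). H2AC6 had 273 against 412, a ratio of 0.655 (0.560 to 0.765), and H2BC11 130 against 196, a ratio of 0.656 (0.521 to 0.823). These last 2 were at least 1.5-fold lower with an interval below 1, as were 3.59% of all genes. H2BC21 had 276 against 341 (0.800, 0.680 to 0.941) and H2BC5 138 against 176 (0.775, 0.616 to 0.974). H4C8 had 120 against 145 (0.818, 0.637 to 1.05), and its interval includes 1 as that of H1-2 does.

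**Figure D4:**
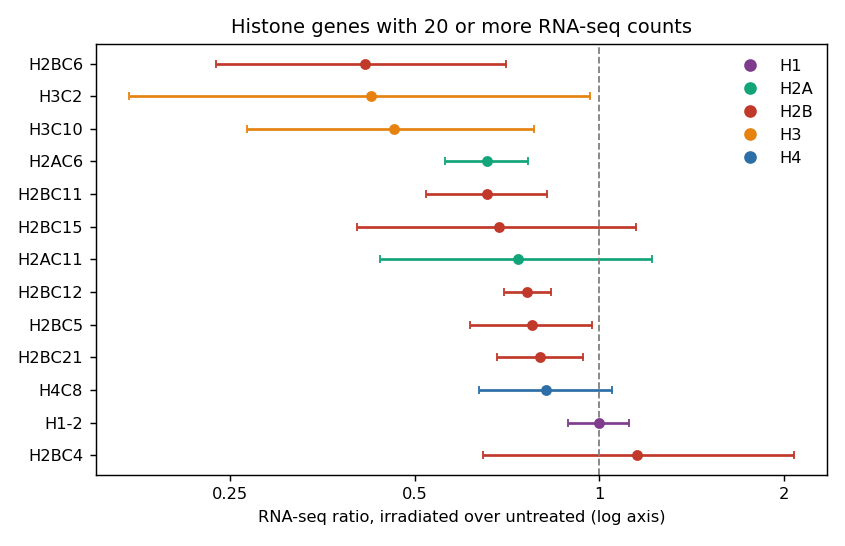
RNA-seq ratio of irradiated over untreated (x axis, log scale) for the 13 histone genes whose larger count of the pair is 20 or more (y axis), coloured by type, with 95% counting intervals and 1 library per condition. H2BC6 is the lowest at 0.415, H1-2 lies at 0.997, and H2BC4 is the only one above 1.

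Sparser genes were lower more often than higher. Of the 6 with 20 to 99 counts, 5 were lower in the irradiated library, against 50.5% of the 4834 genes in that range, and 3 had an interval wholly below 1, against 7.72%. These 3 were H2BC6 with 21 against 50 (0.415, 0.237 to 0.704), H3C10 with 22 against 47 (0.463, 0.266 to 0.783) and H3C2 with 9 against 21 (0.424, 0.171 to 0.965). H2AC11 had 29 against 39 and H2BC15 27 against 39, and both intervals include 1, while H2BC4 had 28 against 24. The 32 genes with 1 to 19 counts summed to 103 in irradiated and 132 in untreated cells, a ratio of 0.772 (0.590 to 1.01). Among them, H2AC20 had 17 and 15 counts, H3C6 8 and 18, H4C16 12 and 11 and H4C5 5 and 10 in irradiated and untreated cells. Per kb of table length, the level of H2BC12 was 1818 counts in irradiated and 2358 in untreated cells, that of H1-2 844 and 837, and that of H2BC21 124.1 and 153. The level of H2BC12 rests on a table length of 495 bases, where RefSeq gives 8566.

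H2A and H2B genes often lie head to head with a shared promoter region. RefSeq positions gave 12 H2A and H2B neighbours within 500 bases, 11 of them on opposite strands and 1 of unknown strand, with a median gap of 237 bases. Their RNA-seq counts were uneven. H2BC12 had 900 irradiated and 1167 untreated counts while its neighbour H2AC12 had 2 and 6. H2AC6 had 273 and 412 while H2BC4 had 28 and 24. H2BC21 had 276 and 341 and H2AC20 17 and 15, and H2BC11 had 130 and 196 and H2AC11 29 and 39. H2BC15 had 27 and 39 and H2AC15 0 and 4. The sources used here do not state which strand was counted, and levels of long table entries are not those of the histone unit alone. Per kb of table length, H2BC11 had 28.4 and H2AC11 79.1 untreated counts, and H2BC15 had 2.27 and H2AC15 8.06. The order by raw counts was thus reversed in these pairs, while the other pairs kept theirs.

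**Figure D5:**
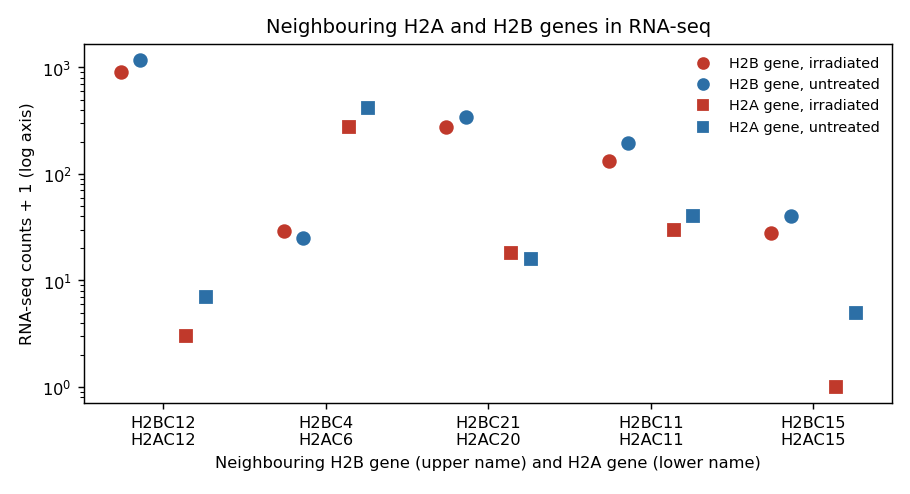
RNA-seq counts plus 1 (y axis, log scale) of the 5 neighbouring pairs of an H2B (circles) and an H2A gene (squares) with at least 20 counts in all (x axis), irradiated left of untreated. In raw counts, not scaled by gene length, the members of a pair differ from each other far more than the conditions do. An example is H2BC12 with 1167 and H2AC12 with 6 untreated counts.

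The share of histone RNA recovered in iCLIP was set against its share in RNA-seq in untreated cells, for genes with at least 50 RNA-seq counts. The 8 histone genes had a median log2 ratio of -1.66, beside -1.12 over all 14708 genes and -0.22 over the 11385 of these listed in iCLIP. H2BC6 (-0.16) and H2BC5 (-0.47) stood highest, followed by H4C8 (-0.62) and H2BC11 (-1.05). H2BC12 (-4.06) and H2BC21 (-4.05) stood lowest, with 8 and 2 iCLIP counts for 1167 and 341 RNA-seq counts, and H2AC6 (-2.56) and H1-2 (-2.26) lay between. The 4 highest genes all have table lengths of 6899 bases or more, while the median of the 125 iCLIP-listed genes of up to 1000 bases was -3.42. The order did not follow length throughout, since H2AC6, the longest of the 8 with 14972 bases, lay below H1-2 with 731. The part of gene length in this order was not tested. The assays also differ in genotype.

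Genes that make, process, degrade and use histone mRNA were described from 8 lists. In the 6 lists where edgeR called 0 genes, the number of tested genes with an unadjusted p below 0.05 was 3 for RNAs without a poly(A) tail, 2 for decay and export, 1 for chaperones and 0 for the replication-independent histones, pre-mRNA processing and cluster neighbours, and DESeq2 called 0 in each. Among replication-independent histones, which lack the S phase restriction, 6 of the 13 listed were tested in iCLIP and 0 were called by edgeR. In RNA-seq 1 of 11 with at least 100 counts passed the size rule, CENPA, the centromeric H3 variant, with 398 irradiated and 910 untreated counts, a ratio of 0.432 (0.383 to 0.487). H2AX, the variant phosphorylated at DNA breaks, had 2328 against 3383, a ratio of 0.680 (0.645 to 0.718). H3-3B, which encodes the replacement histone H3.3, had 6107 against 6054. Of the 11, 6 had intervals below 1 and 1 above.

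Of 24 genes for histone pre-mRNA processing, 12 were tested in iCLIP, 0 were called by edgeR, and 0 of 22 passed the size rule in RNA-seq, with 2 intervals above 1 and 3 below. SLBP, the stem-loop binding protein, had 668 irradiated and 746 untreated RNA-seq counts, a ratio of 0.885 (0.796 to 0.984). Of 23 decay and export genes, 13 were tested, 0 were called, and 0 of 23 passed the size rule, with 5 intervals above 1 and 5 below. CTIF, a translation factor of the nuclear cap-binding complex, came nearest in iCLIP, with 184 and 340 counts in irradiated and 531 and 574 in untreated libraries and an edgeR adjusted p of 0.0632. Of 24 histone chaperones, 15 were tested and 0 called, and 0 of 24 passed the size rule, with 4 intervals above and 9 below 1. NASP, an H3 and H4 chaperone, had 3757 against 4111 RNA-seq counts, a ratio of 0.904 (0.864 to 0.945).

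Of 15 genes for histone transcription and CDK2, 10 were tested in iCLIP and 1 rose. CDKN1A, which encodes the CDK inhibitor p21, had 99 and 173 iCLIP counts in irradiated and 21 and 34 in untreated libraries, and edgeR gave it a log2 change of 2.93 ± 0.22 (SE) at an adjusted p of 9.6e-08. Its RNA-seq counts were 8111 against 2335, a ratio of 3.43 (3.28 to 3.598), the only one of the 15 past the size rule, and 6 of the 15 had intervals below 1. NPAT, the coactivator of histone genes, had 449 and 447 RNA-seq counts, CCNA2, the S phase cyclin A2, 1360 and 2471, and CDK2 1223 and 1318, in irradiated and untreated cells. Of 41 DNA replication genes, 26 were tested in iCLIP and 1 rose, LIG1, the replication ligase, with 244 and 345 counts in irradiated and 320 and 304 in untreated libraries (log2 fold change 0.58, edgeR adjusted p = 0.0241). Without either untreated library, its adjusted p was 0.154 or 0.286. In RNA-seq 0 of 40 passed the size rule, with 8 intervals above 1 and 14 below. PCNA, the sliding clamp, had 4865 against 3245 (1.48, 1.42 to 1.55) and RRM2, a ribonucleotide reductase subunit, 5531 against 5722. The part of cell cycle position in the histone ratios was not tested.

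RNAs without a poly(A) tail bear on how RNA-seq sees histone mRNA. Of 20 such RNAs, such as small nuclear RNAs, 14 were listed and 6 tested in iCLIP, with 0 called by edgeR. In RNA-seq they summed to 115 irradiated and 122 untreated counts, none reaching 100. RMRP, the RNA of the mitochondrial RNA processing RNase, had 72 and 119 iCLIP counts in irradiated and 102 and 113 in untreated libraries, and under another gene identifier 24 irradiated and 34 untreated RNA-seq counts. The sources used here do not state whether poly(A) RNA was selected, and the part of tail status in the histone counts was not tested. Of 29 neighbours of the histone clusters that are not histones, 6 were tested in iCLIP and 0 called, and 0 of 17 passed the size rule, with 1 interval above 1 and 5 below. Over the 9230 genes tested in iCLIP the median log2 fold change was 0.00157, and the list medians were between -0.27 and 0.28.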

How the data were processed

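The authors deposited 1 table per library. Each gives unscaled cDNA counts per gene and the percent of all cDNA in the library, per the file headers, and a gene length. The build is hg38, and kallisto 0.44.0 is named for RNA-seq, per the submitters' processing notes. The sources used here do not give the aligner, the strand setting, the treatment of reads that match several genes or the removal of duplicates, and near-identical histone copies may share reads. Intergenic counts (30.6% to 31.3% of iCLIP and 44.4% of RNA-seq counts) were left out of library sizes.

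The genes and lists were chosen with earlier results of these data known. Genes were matched by identifier, since H4C16 and H2AC25 carry other names in RNA-seq. Over the whole iCLIP table, edgeR 4.0.16 in R 4.3.3 (quasi-likelihood F test, TMM, filterByExpr, Benjamini-Hochberg at 0.05, two-sided) compared 2 irradiated with 2 untreated libraries. DESeq2 1.42.0 was an alternative. The test was checked on simulated data of 9230 genes with 200 changed. It recovered 64% of 2-fold rises, 48% of 2-fold falls, 100% of 4-fold rises and 78% of 4-fold falls, and 6 of 151 calls were false. The simulation gave every gene the same fixed dispersion and covered genes past the filter only. Its rates therefore do not describe the histone genes, of which only H4C16 passed. The chi-square of replicates divided by its degrees of freedom was 2.12 for the irradiated and 1.51 for the untreated pair, so replicates varied beyond counting error. Histone genes were summed by type as shares of gene counts with exact Clopper-Pearson 95% intervals, and RNA-seq ratios were TMM-scaled with exact conditional intervals. The iCLIP over RNA-seq ratio used a prior count of 0.5. Python 3.11.15 with scipy 1.17.1 and pandas 2.3.3 was used.

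Named genes were, per type, the 3 with the most iCLIP and the 3 with the most RNA-seq counts, those past a threshold, the 4 highest and 4 lowest iCLIP over RNA-seq ratios, testis and somatic linker genes, and up to 4 leading genes per list plus called ones. Histone genes outside this rule are given to account for all of them. Not every gene named by the rule is reported here. The same-numbered libraries deviated with a correlation of -0.0826, so their numbers were not taken as pairs. With 2 libraries a group, this correlation cannot settle whether they were paired.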

Additional observations from a re-analysis of the deposited data

How the results depend on the processing

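No histone gene was called in iCLIP under any alternative tried, but most alternatives could hardly call any. The stricter filter tested 0 of these genes, and the other settings with a filter tested 1 or 2. These 0 calls therefore say little on the histone genes. With no filter 39 were tested and 1 had an unadjusted p below 0.05. Over all tested genes the 323 calls became 190 with the replicate block and 121 with DESeq2. The labels do not tell whether the replicate numbers pair the libraries. Leaving out 1 library gave 186 to 421. Scaling by gene count totals moved the split to 184 higher and 132 lower, against 224 and 99. The related lists held 2 called genes, 1 with the replicate block, 1 with DESeq2 and 1 to 7 without 1 library. LIG1 was not called with the replicate block (edgeR adjusted p = 0.0906) or with DESeq2 (adjusted p = 0.153), and RUNX2 was not called with the replicate block (edgeR adjusted p = 0.0550).

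Leaving out 1 library kept the iCLIP log2 ratio between -1.36 and -1.13 for H2B and between -0.87 and -0.16 for H4, while H1 (-0.38 to 0.84), H2A (-0.40 to 0.81) and H3 (-0.49 to 0.98) took both signs. Without H4C16 and genes over 1000 bases, a choice made after seeing the data, H2B had -2.58 and H4 reached 0.39, and H4 then changed sign. Relaxing the RNA-seq size rule to 1.5-fold gave 2 histone genes, and asking only for an interval on 1 side of 1, added after seeing the data, gave 5. Without the leading gene of each type the RNA-seq log2 ratio was -0.44 for all histones and -0.55 for H1, whose other genes have 9 irradiated and 13 untreated counts. The iCLIP over RNA-seq median of -1.66 was -2.09 in irradiated cells, -1.51 with a prior count of 2, -3.31 at 200 or more RNA-seq counts and -1.52 to -1.49 without 1 untreated library. The depth of iCLIP limits single histone genes, most of which have 5 counts or fewer.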

Other observations

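Copies of histone genes named as pseudogenes lie outside the symbol rule, and these were picked after their values were seen. H2BC20P had 120 irradiated and 200 untreated RNA-seq counts (ratio 0.593, interval 0.469 to 0.748), and H2BC19P had 120 and 179, a ratio of 0.663 (0.522 to 0.840). H1-12P had 5 irradiated and 16 untreated counts, and H1-9P had 3 and 0. None of the 4 was listed in iCLIP.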
